A study of Mus musculus with 12 samples.

Results

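Kmt5a, Inhba, Rbpj, Zmiz1, Pds5a, Yme1l1 and Zc3h11a are 7 genes of the mouse that carried a peak of N4-acetylcytidine (ac4C) in every list of peritoneal macrophages kept with interferon-γ (IFN-γ) for 24 h or 48 h, and in neither list of 0 h. They were chosen by that presence and absence, read from the gene symbol the authors gave each peak, out of 2096 genes with a peak in any list. The pattern itself is therefore a description and not a result, and no test is given for it. Of the 2096 genes, 10 met the same rule, which is 0.477%. The other 3 were B230303A05Rik, whose peak is an Inhba peak, Gm38394, which shares all 5 Zc3h11a peaks, and Ctss, the lysosomal protease cathepsin S. The reverse pattern, a peak in both 0 h lists and in none of the 4 later lists, was met by 110 genes, or 5.25%.

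The study took RNA from macrophages of the mouse peritoneal cavity, phagocytes held in culture medium with serum, after 0, 24 or 48 h of IFN-γ, the cytokine of classical macrophage activation. RNA bearing ac4C was pulled down (RIP-seq) and total RNA was sequenced beside it, 2 samples of each kind at each time, 12 in all. The labels give no genotype, strain or age of the mice, and no cells without IFN-γ were sampled at 24 h or 48 h, so that IFN-γ and elapsed time cannot be told apart. Each time has 2 peak lists, called list 1 and list 2; which sample a list came from is not stated, the number pairs nothing between times, and nothing says that the samples came from separate animals or cultures.

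ac4C is a cytidine with an acetyl group, written into RNA by the acetyltransferase NAT10, and it has been linked to the stability and translation of messenger RNA. A RIP-seq peak is a stretch where the pull-down holds more fragments than its control. A peak list cannot tell scarce RNA from RNA with little ac4C, nor fewer cells with a transcript from less of it per cell. The total RNA samples were not analysed here.

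The lists differed in length and depth. The 0 h lists had 1151 and 946 peaks, the 24 h lists 725 and 646, and the 48 h lists 674 and 611. The relative input depth, read from the lowest input coverage of a list, was 100% and 91.4% of the deepest list for 0 h, 73.7% and 80.8% for 24 h, and 57.2% and 44.5% for 48 h. That of the pull-down reached 91.5% and 78% for 0 h, 100% and 98% for 24 h, and 78% and 68.5% for 48 h. The 7 genes therefore had no peak in the 2 lists with the most peaks and the deepest input. The pattern at matched input coverage is given further on, and a matched pull-down depth was not tested. The weakest peak of every list had a −log10 p between 2.30 and 2.33, near p of 0.005. Of the 10 macrophage markers examined, 4 had a peak in any list: Ctss in all 4 later lists, Itgam in both 0 h lists, Lyz2 in 1 and Mrc1 in 2 lists. Among markers of resident large peritoneal macrophages, B cells, T cells, mast cells, neutrophils, mesothelial cells and fibroblasts, 1 gene had a peak, the mesothelial Wt1, in 48 h list 2. A peak is no measure of a marker's level, so these counts do not measure the make-up of the samples.

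The 7 genes held 41 peaks in the 4 later lists, 21 at 48 h and 20 at 24 h. When peaks that overlap by 1 base or more were merged, they lay in 20 regions. Of these, 3 were in all 4 later lists, 3 in 3, 6 in 2 and 8 in 1 list. The regions in all 4 belonged to Kmt5a, Inhba and Yme1l1. Rbpj and Pds5a had a region in 3 lists, no Zmiz1 region reached more than 2, and no Zc3h11a region recurred at all. No region overlapped a 0 h peak, and the nearest 0 h peak lay 38044 bases or more away. Across the whole series 1146 regions were found only in later lists, 189 of them in 2 or more and 7 in all 4; those 7 were the regions of Kmt5a, Inhba and Yme1l1, regions of Sf3b1 and Sh3glb1, and 2 with no gene.

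The peaks were short, 208 to 564 bases with a median of 235, and 25 of the 41 were 250 bases or less; the median over all 2656 later peaks was 252. By the authors' annotation, 26 centres (63.4%) lay in a 3′ UTR, against 46.4% of all later peaks. The 4 centres in a 5′ UTR (9.76%, against 3.24% of all later peaks) were 1 recurring Inhba region, 5 centres (12.2%, against 5.46%) were in introns, 2 in the last exon and 4 in another exon. Peaks of 1 gene and 1 region share their source, so these shares are descriptions without a test. The shares also differ in measure, as places of the 41 peaks were read from their own gene alone. Those of all later peaks were read from every gene on a peak, exons before introns. Under Gm38394, the Zc3h11a peaks chr1:133587167-133587390 and chr1:133554610-133554833 were centred in exon 1 and the 3′ UTR. On that measure fewer of the 41 centres would be in introns and more in 3′ UTRs.

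The plot of peak strength by list shows how unequal the 7 genes were. Kmt5a was strong in every later list, Inhba had a q of 0.05 or less in 3 lists and Rbpj in 2, and every peak of Yme1l1 and Zc3h11a stood below the middle of its list, at percentiles 20.5 to 43.5 for Yme1l1 and 4.91 to 32.1 for Zc3h11a.

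**Figure D1:**
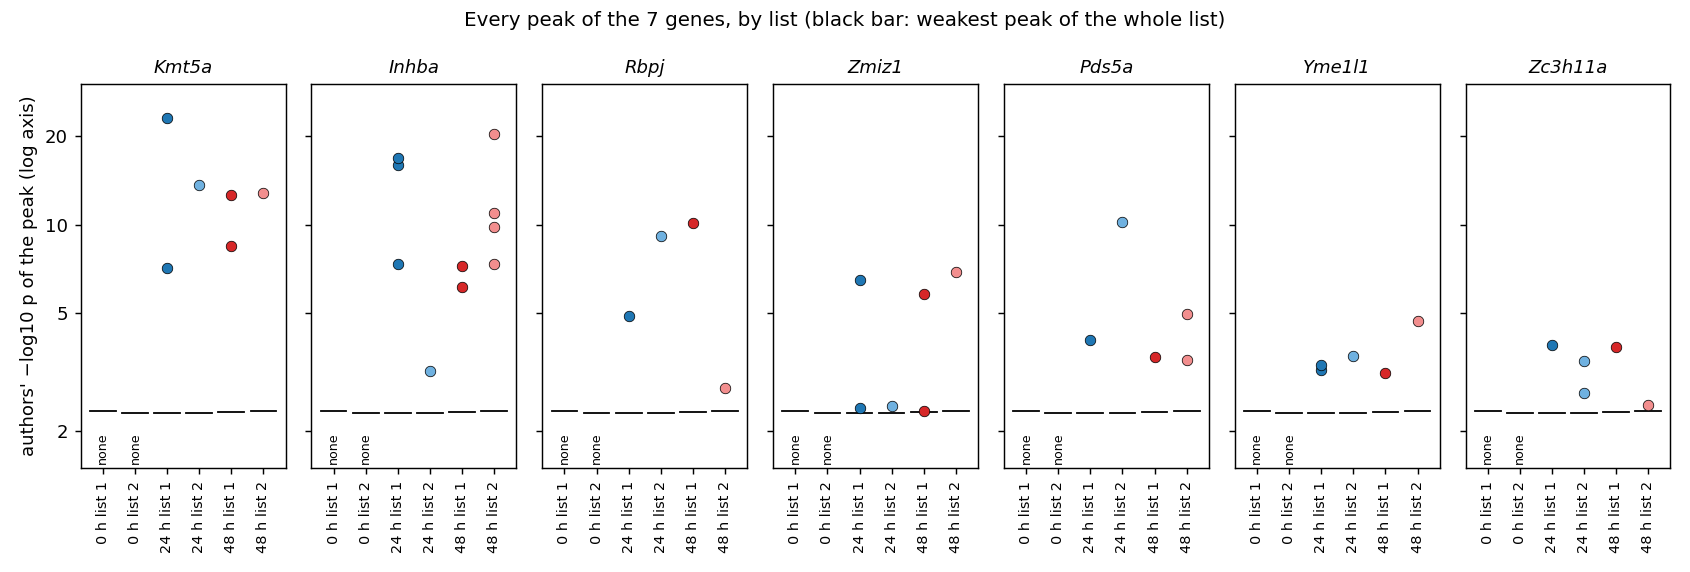
Each point is 1 peak of the gene in the panel title, placed by list (x axis) and by the authors' −log10 p (y axis, log scale); the black bar is the weakest peak of the whole list and "none" marks a list without a peak of the gene. Kmt5a lies between 7.11 and 23.0 in the 4 later lists, while all Zc3h11a peaks lie below 4, between 2.45 and 3.91.

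Kmt5a (ENSMUSG00000049327) encodes the histone methyltransferase, also called SET8 or PR-Set7, that places a single methyl group on lysine 20 of histone H4, a mark tied to chromatin compaction and the cell cycle. Its strongest peaks had the highest mean percentile of the 7 genes, 92.6. In 48 h list 2, however, an Inhba peak had a higher −log10 p, 20.3. Its first region, chr5:124598866-124599156 (GRCm39), lay in the 3′ UTR in all 4 later lists. Its best summit had 165 pull-down fragments over an input coverage of 14 in 48 h list 1 and 127 over 6.51 in 48 h list 2, against 239 over 16.2 in 24 h list 1 and 206 over 23 in 24 h list 2. The authors' fold enrichment was 3.29 and 4.52 at 48 h, against 4.15 and 2.87 at 24 h, so the times overlapped. The −log10 p was 12.6 and 12.8 at 48 h, against 23.0 and 13.6 at 24 h. This put the peak between the percentiles 89.9 and 97.7 of its lists. The lists differed in depth. With all lists brought to the input coverage of the shallowest, the −log10 p was 9.9 and 12.8 at 48 h, against 14.3 and 8.15 at 24 h, so the times overlapped there too. The 4 peaks shared 200 bases, and their summits fell within 11 bases of each other. This was the only region of the 7 genes with a q of 1e-05 or less in all 4 later lists.

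A second Kmt5a region in the same 3′ UTR, chr5:124599442-124599677, was in list 1 of each later time. Its peaks were 208 bases at 48 h and 230 bases at 24 h, with fold enrichments of 2.76 at 48 h and 2.31 at 24 h. The summits lay 23 bases apart. Neither region had a 0 h peak nearby: the nearest, on Sbno1, was 52226 bases from the first region.

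Pds5a (ENSMUSG00000029202) encodes a regulator of cohesin, the ring complex that holds sister chromatids together and shapes chromatin loops. Its peaks fell in 2 places that the lists held in different combinations. The region chr5:65766609-65766941 in the 3′ UTR was in 3 lists and missing from 24 h list 2. Its fold enrichment was 2.72 and 2.75 at 48 h, against 3.07 in 24 h list 1, on 43 and 39 fragments at 48 h and 44 at 24 h. All 3 peaks had a q of 1 and stood at percentiles 22.7 to 34.3 of their lists.

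The other Pds5a region, chr5:65772711-65772949, started in intron 31 and had its centre in exon 32. It was in 48 h list 2 and 24 h list 2. The fold enrichment was 4.13 at 48 h and 6.60 at 24 h, the highest of all 41 peaks, on 28 and 37 fragments over an input coverage of 1 in each. The 2 summits were 1 base apart. 24 h list 2 thus held Pds5a through the exon peak alone, and 24 h list 1 and 48 h list 1 through the 3′ UTR peak alone.

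Rbpj (ENSMUSG00000039191) encodes the DNA-binding protein on which Notch signalling ends: it represses its targets until the cleaved Notch receptor joins it. In mouse macrophages RBPJ is known to favour inflammatory gene expression. All 4 Rbpj peaks lay in the 3′ UTR. The region chr5:53812168-53812407 was in 3 lists, with fold enrichments of 2.89 in 48 h list 1, against 1.81 in 24 h list 1 and 2.56 in 24 h list 2. It held 158 fragments in 48 h list 1, against 199 and 160 at 24 h. The 3 peaks shared 209 bases, and the −log10 p was 10.1 in 48 h list 1, against 4.91 and 9.16 at 24 h.

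48 h list 2 had no peak there. It held Rbpj through another peak further along the 3′ UTR, chr5:53813308-53813578, with 67 fragments, a fold enrichment of 2.04, a −log10 p of 2.80 and a q of 1. That peak stood at percentile 9.9 of its list. Rbpj therefore met the rule in 48 h list 2 only through a different and weaker place.

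Zmiz1 (ENSMUSG00000007817) encodes a nuclear cofactor of the PIAS family, the proteins that attach SUMO, and it is known as a partner of NOTCH1 and of SMAD transcription factors. Its 6 peaks lay in 3 regions, each in 2 lists. The region chr14:25666485-25666735 in the 3′ UTR was in 48 h list 2 and 24 h list 1, with fold enrichments of 2.57 at 48 h and 2.26 at 24 h on 135 and 151 fragments. The summits were 8 bases apart, and both peaks had a q of 0.05 or less. A second 3′ UTR region, chr14:25663505-25663835, was in list 1 of each later time. It had a fold of 3.12 and a −log10 p of 5.84 at 48 h, against a fold of 1.73 and a −log10 p of 2.40 at 24 h.

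The third Zmiz1 region, chr14:25537026-25537372, lay far upstream and decided the gene's place among the 7. In 48 h list 1 its peak had 21 fragments and a −log10 p of 2.34. In 24 h list 2 it had 14 fragments and a −log10 p of 2.44, and it was the only Zmiz1 peak of that list. Both peaks started in intron 2 and ended in intron 3, so that they run across the exon between them, although the centre of each was annotated as intron. They shared 85 bases, both had a q of 1, and they stood at percentiles 0.89 and 7.89 of their lists, just above the weakest calls.

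Short stretches of the Rbpj and Zmiz1 promoters are shown because these were the only 2 of the 7 genes whose promoter held the core letters that the RBPJ protein is known to bind. All 7 genes matched the RefSeq promoter table (GRCm38.p6), in which a promoter runs from 250 bases before the start site to 50 after it. The core was searched as TGGGAA on both strands, and it is in capitals below, read on the strand of the gene.
Rbpj, chr5:53590185-53590214, + strand: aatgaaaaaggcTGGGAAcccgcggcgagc
Rbpj, chr5:53590269-53590298, + strand: gacgctcgcattTTCCCAggacccctcctc
Zmiz1, chr14:25458976-25459005, + strand: agagctgagaccTGGGAAcggagaagaaag
The core was in 28.3% of all symbols with a promoter, so that 2 of 7 is close to the background. The ISRE core GAAANNGAAA, searched on both strands as well, was in none of the 7 promoters and in 3.99% of all symbols, and the AP-1 site, TGACTCA or TGAGTCA, in none of the 7 and in 5.95%. The motifs were picked after the peaks had been seen, and a match is no more than a run of letters.

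Inhba (ENSMUSG00000041324) encodes the βA subunit of activin A, a secreted ligand of the TGF-β family that macrophages release on activation and that signals through SMAD2 and SMAD3. It had the most peaks, 10, of the 7 genes: 2 and 4 at 48 h, against 3 and 1 at 24 h. In the authors' annotation the gene spans chr13:16186436-16206206 on the + strand, 19770 bases. Its regions fell in the 5′ UTR and in the 3′ UTR.

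The region in all 4 later lists, chr13:16191764-16192136, was centred in the 5′ UTR and ended in exon 4, with its summit 5467 to 5507 bases from the start of the gene. The fold enrichment was 2.12 and 3.24 at 48 h, against 3.47 and 1.63 at 24 h. The fragments were 170 and 146 at 48 h, against 197 and 140 at 24 h, over an input coverage of 23 and 11 at 48 h, against 16 and 28 at 24 h. 24 h list 2, with the highest input and the lowest fold, gave the weakest call, a −log10 p of 3.19 and a q of 1, and it was the only Inhba peak of that list. The 4 peaks shared 105 bases, and their summits fell within 40 bases.

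The other 3 Inhba regions were in the 3′ UTR. The region chr13:16205701-16206126, with its summit 207 to 225 bases before the end of the gene, was in 3 lists, with folds of 1.88 and 2.02 at 48 h, against 1.76 in 24 h list 1. It was missing from 24 h list 2. The region chr13:16202202-16202766 was in 48 h list 2, with a fold of 2.14 on 359 fragments, and in 24 h list 1, with a fold of 2.35 on 419 fragments, the most of any of the 41 peaks. The 24 h peak was 564 bases with 2 summits and the 48 h peak 217 bases with 1. The region chr13:16201724-16201942 was in 48 h list 2 alone, with a fold of 3.38, 309 fragments and a −log10 p of 20.3, the strongest Inhba call. This was the only one of the 8 regions in a single list that did not have a q of 1.

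Every Inhba peak also lay in an intron of another annotated gene on the − strand: the 5′ UTR region in intron 1 of B230303A05Rik, and the 3′ UTR regions in the last intron of Gm48444. The peaks carry no strand, so the files cannot assign the fragments to either gene. B230303A05Rik met the rule through the Inhba region, and Gm48444 missed it by 24 h list 2.

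Yme1l1 (ENSMUSG00000026775) encodes an ATP-dependent protease of the mitochondrial inner membrane, known for cleaving OPA1 and so setting the balance of mitochondrial fusion. Its main region, chr2:23087020-23087329, was in all 4 later lists, where the annotation passes between last exon and 3′ UTR. The centre was annotated as last exon in 48 h list 1 and 24 h list 2, and as 3′ UTR in 48 h list 2 and 24 h list 1. The fold enrichment was 2.01 and 3.16 at 48 h, against 2.16 and 2.24 at 24 h, on 72 and 57 fragments at 48 h, against 70 and 58 at 24 h. The 4 peaks shared 203 bases, while their summits spread over 75 bases. This region recurred as often as that of Kmt5a but was weak throughout: the −log10 p was 3.16 and 4.70 at 48 h, against 3.36 and 3.597 at 24 h, and no peak had a q of 0.05 or less. A further Yme1l1 peak, chr2:23082353-23082575, was in 24 h list 1 alone. It ran from intron 13 across exon 14 into intron 14, with 18 fragments and a fold of 3.15.

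Zc3h11a encodes a zinc finger protein tied to the TREX complex, which carries messenger RNA out of the nucleus. The gene is listed under ENSMUSG00000102976 and ENSMUSG00000116275, and all its peaks also under Gm38394, a gene on the − strand. Zc3h11a runs the same way, as its 3′ UTR peak had lower coordinates than its intron 1 peak. It had 5 peaks in 5 separate regions, so no place was shared between any of the lists. 48 h list 1 had a 3′ UTR peak of 350 bases, chr1:133547716-133548066, with a fold of 3.63 on 27 fragments. 48 h list 2 had an intron peak, chr1:133581949-133582166, with a fold of 2.88 on 14 fragments. 24 h list 1 had an intron peak, chr1:133582623-133582857, with a fold of 3.62 on 22 fragments. 24 h list 2 had an intron 1 peak, chr1:133587167-133587390, with a fold of 3.49 on 21 fragments, and an exon peak, chr1:133554610-133554833, with a fold of 2.31 on 39 fragments. The exon was exon 13 or exon 12, and the intron of the first 2 intron peaks intron 2 or intron 1, by the identifier used. Under Gm38394, the intron 1 peak of 24 h list 2 was centred in exon 1 and the exon peak in the 3′ UTR. All 5 peaks had a q of 1 and stood at percentiles 4.91 to 32.1 of their lists. Zc3h11a thus had a peak in every later list without any stretch of RNA that recurred.

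**Figure D2:**
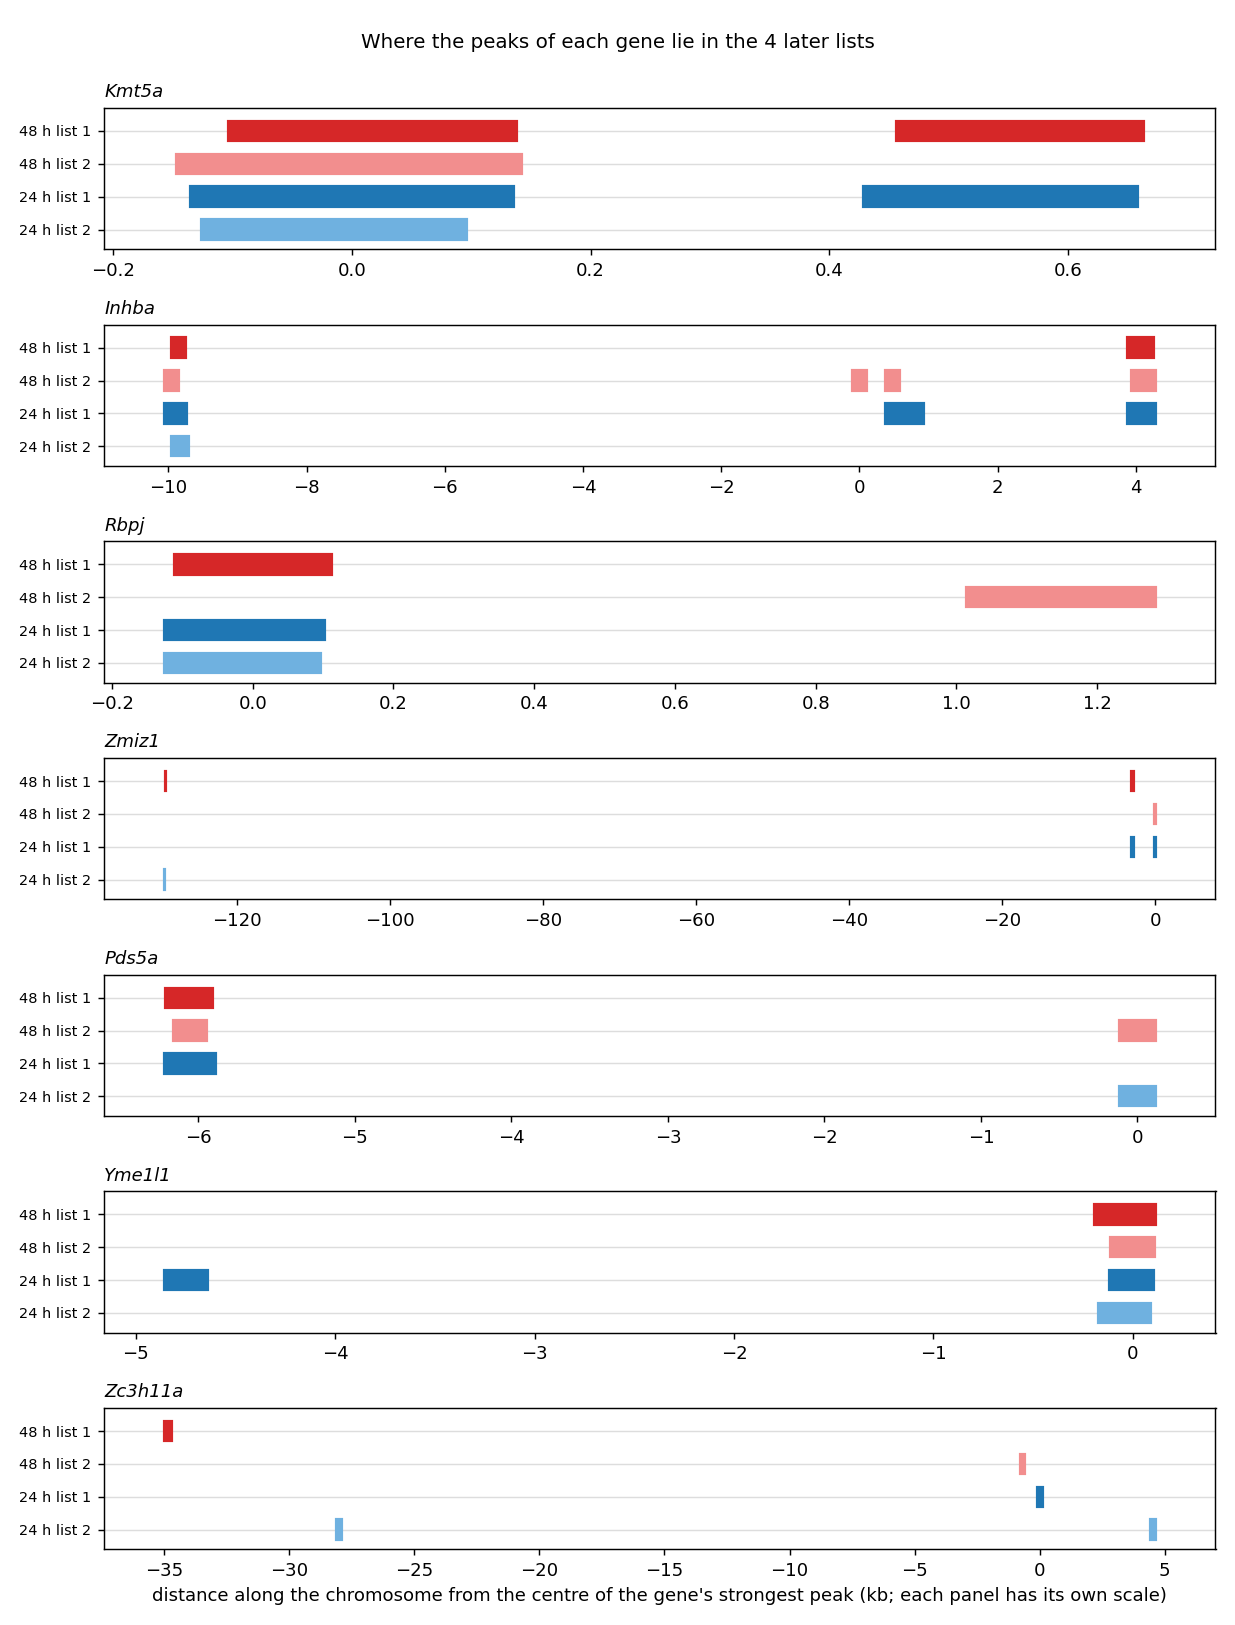
Each bar is 1 peak, drawn to scale along the chromosome (x axis, kb from the centre of the gene's strongest peak, with a scale of its own in each panel) and by list (rows, 48 h above 24 h). Kmt5a, Inhba and Yme1l1 show 1 stack of 4 bars, Rbpj and Pds5a a stack of 3, Zmiz1 stacks of 2, and the 5 bars of Zc3h11a do not overlap.

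The number of fragments behind the peaks separated the 7 genes further. The median of the 41 peaks was 127 pull-down fragments over an input coverage of 11, against 47 fragments over 3.33 for all later peaks. The median fold enrichment was 2.75 for the 41 peaks, against 3.12 for all later peaks. Of the 41 peaks, 31 stood above the middle of their list in input coverage, and 8 above percentile 90. Inhba had 140 to 419 fragments and Kmt5a 127 to 239. The 5 Zc3h11a peaks had 14 to 39 and the 5 Pds5a peaks 28 to 44. A q of 1 was given to 17 of the 41 peaks (41.5%), against 40.7% of all later peaks; 20 had a q of 0.05 or less, 10 a q of 1e-05 or less and 4 a fold of 4 or more. Of the 8 peaks in regions seen in 1 list, 7 had a q of 1.

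**Figure D3:**
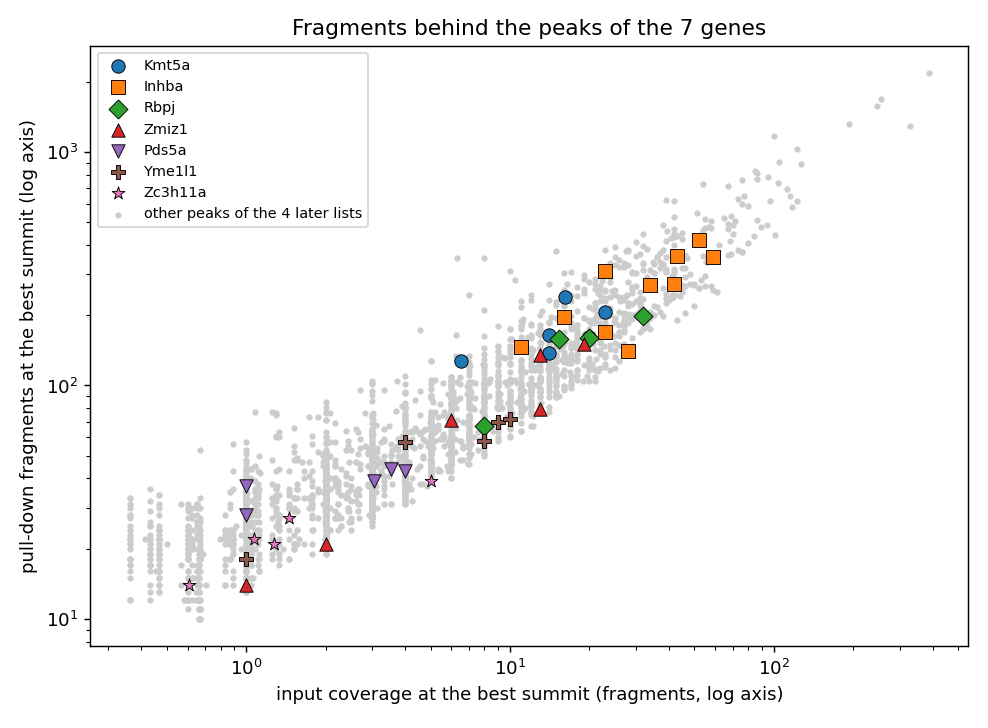
Pull-down fragments (y axis) are set against input coverage (x axis) at the best summit of each peak, both on log axes; coloured symbols are the 41 peaks of the 7 genes and grey points the other peaks of the 4 later lists. Inhba and Kmt5a lie at 127 fragments or more, and Zc3h11a and Pds5a at 44 or fewer.

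The rule asked for 1 peak or more of each gene in each later list and did not use how many there were. The times are compared on that number, but it is not free of the rule. A peak of each of the 7 genes was required in every list. Those required peaks are part of every measure below. They make the numbers of peaks and of bases alike between the times, so a small difference in these cannot be read as a result. The rule did not ask how strong a called peak was. The 7 genes had 10 and 11 peaks at 48 h, against 12 and 8 at 24 h. The means were 10.5 ± 0.707 at 48 h and 10 ± 2.83 at 24 h (SD, n = 2 lists each), a difference of 0.5 that was smaller than the spread of the lists (exact permutation test, two-sided, p = 1). They covered 2794 and 2720 bases at 48 h, against 3601 and 1877 at 24 h, a difference of 18 bases (exact permutation test, two-sided, p = 1). The number of peaks with a q of 1 was 4 and 3 at 48 h, against 5 and 5 at 24 h, and the median percentile of the peaks was 60.9 and 70 at 48 h, against 59 and 31.1 at 24 h. For each of these last measures the exact two-sided p was 0.33, the smallest that 2 lists against 2 can give. All these p-values rest on the spread of 2 lists per time, which may be technical. 24 h list 2 was the list with the fewest peaks of the 7 genes, and all but Zc3h11a of the 7 had 1 peak there.

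Requiring more of a peak separated the genes. With a q of 0.05 or less, Kmt5a alone of the 7 kept a peak in all 4 later lists, Inhba in 3, Rbpj and Zmiz1 in 2, Pds5a in 1, and Yme1l1 and Zc3h11a in 0. With a fold of 4 or more, Kmt5a and Pds5a kept 2 lists each and the other 5 genes none. With all lists brought to the input coverage of the shallowest, Kmt5a, Rbpj and Pds5a kept 4 lists, and Inhba, Zmiz1, Yme1l1 and Zc3h11a 3. The list that these 4 genes lost was 24 h list 2 each time. There the Inhba peak had a −log10 p of 2.07 at matched coverage, the Yme1l1 peak 2.24, the Zmiz1 peak 1.73 and the Zc3h11a peaks 2.24 and 2.13, all under the threshold near 2.30. With peaks counted only where the centre lay in an exon, Zmiz1 kept 3 lists and Zc3h11a 2. None of the 7 had a 0 h peak under any of these selections, since each can only remove peaks.

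**Figure D4:**
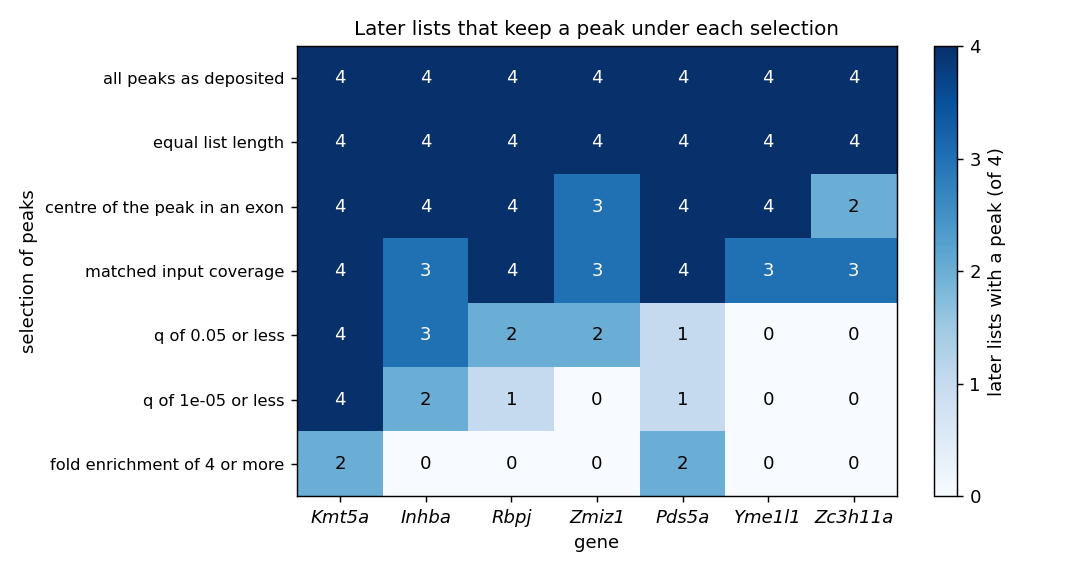
Each cell gives in how many of the 4 later lists a gene (columns) kept a peak under a selection of peaks (rows). The Kmt5a column is at 4 in every row except a fold enrichment of 4 or more, where it is at 2, and the Yme1l1 and Zc3h11a columns are at 0 for both q thresholds.

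Genes just outside the rule are given with their values. In all, 30 genes missed it by 1 later list, having no 0 h peak and a peak in 3 of the 4 later lists. The highest by mean percentile, taken over the 3 lists that held them, were Gm12696 (94.7), Selenow (93.3), Nfkbiz (88.4), Gm48444 (87.7) and Slfn5 (87.3). The peaks of Gm48444 are those of Inhba in the same 3 lists. Inside the rule the mean runs over 4 lists, the weakest included, so the values on either side of it are not compared: Kmt5a, at 92.6, and Inhba, at 71.6, were the highest, and Yme1l1, at 30.3, and Zc3h11a, at 24.6, the lowest. Nfkbiz, the gene of the NF-κB regulator IκBζ, had −log10 p values of 10.7 in 48 h list 1, against 12.96 and 10.8 at 24 h, and was missing from 48 h list 2. Slfn5, an interferon-inducible Schlafen gene, had 14.3 in 48 h list 1, against 8.74 and 10.7 at 24 h, and was missing from the same list. Selenow, a small selenoprotein gene, had 34.7 and 26.8 at 48 h, against 8.84 in 24 h list 2, and was missing from 24 h list 1. A further 15 genes missed it by 1 0 h list while present in all 4 later ones, the highest by mean percentile over the lists that held them Gm50461, Gm5814, Tceal9, Jun and 1810013L24Rik. Jun, a subunit of the transcription factor AP-1, had a peak in 0 h list 1 that kept it out.

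The genes that work beside the 7 were read from lists drawn up with earlier results of these data known. Of 30 Notch signalling genes, 9 had a peak in any list; Rbpj and Zmiz1 met the rule and none had the reverse pattern. Fbxw7, Kdm5a and Maml1 each had a peak in 1 0 h list and 1 later list. The receptor gene Notch2 had a peak in 0 h list 1 and 24 h list 2, in different regions. Of 26 genes of activin and TGF-β signalling, 5 had a peak. Inhba was in all 4 later lists, Skil, a SMAD corepressor gene, in 2 later lists, the activin receptor gene Acvr1b and the TGF-β receptor gene Tgfbr1 in 1 later list each, and Smad2 in 1 0 h list.

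Of 15 cohesin genes, 5 had a peak. Nipbl, the cohesin loader gene, was in 5 lists, both 0 h lists among them. Ctcf, which encodes the protein that halts cohesin on chromatin, had the reverse pattern of Pds5a, a peak in both 0 h lists and in no later list. That pattern was met by 5.25% of all genes with a peak. The strongest Ctcf peak was weak, with a −log10 p of 3.53 at percentile 19.9 of 0 h list 1. Rad21 was in 1 0 h and 1 later list, and Stag2 in 1 0 h list. Of 27 histone methyltransferase genes and H4K20 genes, 6 had a peak, and Kmt5a alone met the rule. Kmt2d and Kmt2e, genes of the MLL family, were in 3 lists each, 1 of them at 0 h, and Ash1l and Kmt2a in 1 list each. Of 20 genes of mitochondrial proteases and membrane dynamics, 2 had a peak, Yme1l1 and Pmpca. Of 20 TREX and export genes, 6 had a peak; beside Zc3h11a, Thoc7 was in 2 later lists and Alyref, Ddx39b and Nxt1 in 1 list each. Of 18 PIAS and SUMO genes, 6 had a peak; beside Zmiz1, Senp6 was in 3 lists, and Sae1 and Sumo3 in 1 each. In each of the 7 lists the genes that met the rule were those that had been chosen for it. The counts are therefore read against the 0.477% of genes with a peak in any list only as a description. The lists also hold genes without a peak, which that share leaves out.

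No Gene Ontology term was held by more than 4 of the 7 genes. The authors' Gene Ontology terms placed Kmt5a, Rbpj, Zmiz1 and Pds5a in the nucleus, 4 of 7, against 47% of the genes with a peak. Inhba, Rbpj and Zmiz1 held the term for positive regulation of transcription from RNA polymerase II promoters, 3 of 7, against 9.52%. Inhba and Zmiz1 shared the term for SMAD signal transduction, 2 of 7, against 0.383%. Rbpj and Zmiz1 likewise shared the term for artery morphogenesis, 2 of 7, against 0.328%. Protein binding was held by 3 of 7, against 47.3%, and cytoplasm by 2 of 7, against 49%. These shares are over 1828 of the genes with a peak. Further shared terms are not named, and no term was tested. By the RefSeq gene models (GRCm38.p6), 6 of the 7 were longer than the median gene with a peak, 24934 bases; Zmiz1 was the longest, at 208869 bases, and Kmt5a the shortest, at 22382. Inhba has 27354 bases in those models but 19770 in the authors' annotation, so its place in this order and in the count of 6 turns on the gene model. A longer gene offers more places for a peak, and the part of length in the pattern was not tested.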

How the data were processed

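The values are those of 6 peak tables that the authors deposited, 2 per time; the pull-down and total RNA reads were not analysed here. BWA 0.7.12, MACS2 2.1.0 and GRCm39 are named, per the submitters' processing notes; their roles and settings, and the control library, are not stated in the sources used here. The fold enrichment is the authors' ratio of pull-down over background at the summit, and the p-value and q-value are given as −log10, per the file headers. The control is called input.

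A peak was 1 chromosome, start and end, with the values of its best summit; coordinates are as deposited, and a start may be off by 1 base. A gene had a peak where the table's overlap symbol named it. The tables give no counts or depths. The whole number of pull-down fragments and the input coverage, the caller's local background, were recovered from the authors' fold, which equals the scaled fragments plus 1 over the input coverage plus 1, and from p, a Poisson upper tail, within 0.005 of −log10 p. This matched 100% of the summits; 36 of the 41 member summits had 1 matching whole number and the rest the nearest. The recovery was tested on simulated data.

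The 7 genes and the gene lists were chosen with earlier results of these data known. Named were the 7 genes with every peak; of genes just outside the rule, the 5 of each kind with the highest mean percentile; and of each list, the genes with a peak where 5 or fewer had one, otherwise the 5 in most lists, with Notch2 added after its values were seen; 1 gene of a list and 1 promoter motif are not reported here. Comparisons of 48 h with 24 h used two-sided exact permutation tests over lists. Alternatives were q and fold thresholds, the centre of the peak, matched input coverage, equal list length, other overlap rules and leaving out each list; the centre in the gene's body, leaving out lists for recurrence, and leaving out Zc3h11a and Inhba were added after seeing the data. Python 3.11.15, numpy 2.4.6, pandas 2.3.3 and scipy 1.17.1 were used.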

Additional observations from a re-analysis of the deposited data

How the results depend on the processing

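The pattern was a count of lists and depended most on the threshold for a peak. All 7 genes met the rule under equal list length and with the centre of the peak in the gene's body (added after seeing the data), and 5 with the centre in an exon. At matched input coverage 3 met it, at a q of 0.05 or less 1 (Kmt5a), at 1e-05 or less 1, and with a minimum fold of 4 none (0). Among all genes with a peak, 10 met the rule, against 14 under equal list length, 6 with the centre in an exon, 4 at matched input coverage, 2 at a q of 0.05 or less (Kmt5a and Sh3glb1), 1 at 1e-05 or less and 0 at a fold of 4 or more; leaving out 1 list at a time gave 12 to 25, with 25 without 24 h list 2, 23 without 0 h list 1 and 17 without 24 h list 1. A region in all 4 later lists was held by 3 of the genes, by 2 (Kmt5a and Yme1l1) at a reciprocal overlap of 50%, by 1 at a q of 0.05 or less and by 0 at a fold of 4 or more, and leaving out a later list gave 3 to 4. Leaving out a list only drops a condition, so the counts of genes and of regions could then stay or rise but not fall.

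The difference in peaks per list, 48 h minus 24 h, was 0.5; it was 0 over summits, at a fold of 4 or more and without Zc3h11a and Inhba (added), and -1.5 to 2.5 with 1 list left out, at -1.5 without 24 h list 2. The difference in bases was 18, and -844 to 880 with 1 list left out, at -844 without 24 h list 2 and -19 without 48 h list 1. Neither difference has a direction that these lists settle, and with 2 lists against 2 no test could pass 0.05. No paired analysis was possible because the list numbers are not sample labels and pair nothing between times. The depth behind the lists is known only as a ratio between them.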
